A study of Mus musculus with 6 samples.

Results

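Both arms of the miR-28a hairpin and both arms of the miR-151 hairpin were followed through small RNA libraries of mouse liver. The 4 mature miRNAs (miR-28a-5p, miR-28a-3p, miR-151-5p and miR-151-3p) were taken by name from the deposited table, which lists 1907 distinct miRNAs, and all 4 were found. The libraries came from normal liver of 12-week-old C57BL/6N mice on a chow diet, 3 females and 3 males described as littermates, with no other genotype, treatment or injury. The study deals with SAB, a protein of the outer mitochondrial membrane, in acute liver injury whose course differs between the sexes. The comparison asks how miRNAs differ between female and male liver before any injury.

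Mature miRNAs are cut from both sides of a stem-loop precursor; one strand, 5p or 3p, is usually loaded into Argonaute in preference to the other, and bases 2 to 8 (the seed) lead target recognition. The miR-28 and miR-151 hairpins are known as products of LINE2, an old family of retrotransposons whose neighbouring copies can pair into a stem. They are transcribed within the introns of 2 genes of cell adhesion: Lpp, which encodes a LIM-domain protein of focal adhesions, and Ptk2, which encodes focal adhesion kinase. In human cells miR-151 has been studied together with its host gene in the migration of liver cancer cells, and the 2 arms of human miR-28 have been described with different targets. Repeat annotation was not used here, so the LINE2 origin is background and not a measurement.

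The mature sequences of the miR-28a arms are shown beside those of relatives that resemble them: miR-708-5p shares the seed of miR-28a-5p, and miR-28b is close to it in sequence, so that its reads could be confused with it. The sequences are those of RefSeq (GRCm38.p6), which matched 2 of the 4 members by name; capitals mark the seed.
miR-28a-5p: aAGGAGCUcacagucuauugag
miR-28a-3p: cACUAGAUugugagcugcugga
miR-28b: aGGAGCUCacaaucuauuuag
miR-708-5p: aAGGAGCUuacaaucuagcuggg
miR-708-3p: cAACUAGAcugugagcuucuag

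Of 1679 mature RefSeq sequences, 1 other, miR-708-5p, carried the seed of miR-28a-5p, and none carried that of miR-28a-3p. Counted from 1 at the 5′ end of miR-28a-5p, miR-28b matched 19 of 21 aligned bases, with the substitutions G13A and G20U, and starts 1 base later, so that its seed is shifted by that base. The other relative, miR-708-5p, matched 16 of 22 bases, with C9U as the first substitution. Paired with each other in RNAduplex, the 2 miR-28a arms formed 17 base pairs at -25.5 kcal per mol, against a median of 16 pairs and -21.2 kcal per mol over 614 hairpins with both arms in RefSeq. The GC content was 45.5% in miR-28a-5p and 50% in miR-28a-3p, near the median of 52.2% over all mature sequences.

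In the mm10 coordinates of the table, miR-28a-5p lies at chr16:24827868-24827889 and miR-28a-3p at chr16:24827908-24827929, on the plus strand in the Mir28a hairpin. GENCODE M21, of the same build, places the hairpin in intron 8 of 12 of the principal Lpp transcript, an intron of 82814 bases, with 65591 bases between the upstream exon and miR-28a-5p. On the minus strand, miR-151-5p lies at chr15:73254855-73254875 and miR-151-3p at chr15:73254820-73254840, in the Mir151 hairpin. This hairpin sits in intron 22 of 31 of the principal Ptk2 transcript, 2158 bases from the upstream exon to miR-151-5p, in an intron of 14556 bases. Each hairpin is on the strand of its host, overlaps no exon of the principal transcript, and is the only annotated miRNA hairpin in that gene. Of the 370 miRNAs tested here, 36.5% had a position that lay wholly within introns of a protein-coding gene on the same strand.

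Total counts were 3285249 to 5756418 in female libraries and 4617647 to 16444674 in male libraries, so that 1 count stood for 0.174 to 0.304 CPM in females and 0.0608 to 0.217 CPM in males (CPM, counts scaled to a library of 1000000). The libraries carried the hepatocyte markers of liver at high level: miR-122-5p, miR-192-5p and miR-194-5p summed to between 370138 and 373751 CPM in females and between 396616 and 440224 CPM in males. The 4 leukocyte markers summed to 3990 to 4556 CPM in females and 2869 to 4419 CPM in males, with a median log2 fold change of 0.47, female over male. Of these 4, 1 passed the threshold, where 6.76% of all tested miRNAs did. It was miR-223-3p, higher in females (log2 fold change 0.62, adjusted p = 0.047, edgeR). The 4 stromal markers, of which none passed in edgeR, summed to 8627 to 11164 CPM in females and 11727 to 12532 CPM in males. Male replicate 2 had the highest hepatocyte and stromal sums and the lowest leukocyte sum of the 6 libraries. Its sums of the listed endothelial and erythroid markers, 71891 and 217 CPM, lay inside the span of the other libraries. On average over the libraries, miR-122-5p made up most of the hepatocyte sum (339858 CPM) and miR-143-3p most of the stromal sum (8724 CPM). Results that rest on male replicate 2 are given with and without it where both were computed.

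All 4 miRNAs were of modest to low abundance and passed the filter on low counts. The 4 mature miRNAs span 21 or 22 bases, so levels were compared without a length correction; the rule by which reads were assigned to them was not stated in the sources used. Together the 4 made up 0.0223 to 0.0275% of the counts in female libraries and 0.0186 to 0.0254% in male libraries. Ordered by mean CPM over the 6 libraries, miR-28a-3p stood at 153 CPM (position 105 of 370), miR-151-3p at 54.1 CPM (147), miR-151-5p at 25.5 CPM (187) and miR-28a-5p at 7.21 CPM (261). Among the 4, miR-28a-3p was the highest and miR-28a-5p the lowest in every library. The order of the miR-151 arms was also the same in every library, 3p above 5p, but in female replicate 2 they stood at 31.8 and 29.6 CPM, within counting error of each other.

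The dominant miR-28a product was its 3p arm. The level of miR-28a-3p was 174, 147 and 171 CPM in the 3 females, against 121, 161 and 142 CPM in the 3 males (CPM here and below uses TMM-adjusted library sizes). The lowest female lay below the highest male, so the groups overlapped. Females averaged 164 ± 14.4 CPM and males 141 ± 20.4 CPM (SD, n = 3 each). The log2 fold change of female over male was 0.22 (SE 0.17, 95% interval -0.15 to 0.59; quasi-likelihood test of edgeR, Benjamini-Hochberg adjusted p = 0.587 over the 370 miRNAs). The interval still holds a 1.5-fold higher level in females.

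The minor arm, miR-28a-5p, was counted 46, 27 and 29 times in females and 42, 23 and 124 times in males. In CPM these were 7.60, 7.47 and 8.27 in females, against 6.65, 5.43 and 7.87 in males, again with overlap of the groups. Its log2 fold change was 0.19 (SE 0.25, 95% interval -0.36 to 0.73; adjusted p = 0.775, edgeR). The SD of its log2 CPM within a sex, 0.19, was no wider than the 0.24 that counting error alone gives at these counts. For miR-28a-3p the same SD was 0.17, against 0.05 from counting, and 27.3% of the tested miRNAs had a smaller one.

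The level of miR-151-5p was 22.8, 29.6 and 26.2 CPM in females, against 19.3, 13.5 and 41.3 CPM in males. All females fell inside the male range, which spanned from male replicate 2 at the bottom to male replicate 3 at the top. Females averaged 26.2 ± 3.41 CPM and males 24.7 ± 14.7 CPM (SD, n = 3 each), with a log2 fold change of 0.04 (SE 0.35, 95% interval -0.72 to 0.80; adjusted p = 0.963, edgeR). The sign of this value turned with upper-quartile factors and on thinning to equal totals. Without male replicate 3 it was 0.66 (adjusted p = 0.219, edgeR), and without male replicate 2 it was -0.24 (adjusted p = 0.691, edgeR).

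The opposite arm, miR-151-3p, stood at 57.3, 31.8 and 49.6 CPM in females, against 42.1, 96.1 and 47.8 CPM in males. Male replicate 2, the lowest library for the 5p arm, was the highest for the 3p arm, and the other libraries overlapped between the sexes. Females averaged 46.2 ± 13.1 CPM and males 62.0 ± 29.7 CPM (SD, n = 3 each), with a log2 fold change of -0.41 (SE 0.32, 95% interval -1.11 to 0.30; adjusted p = 0.587, edgeR). Without male replicate 2 the log2 fold change was 0.06 (adjusted p = 0.942, edgeR), so the sign rested on that library. Within a sex the log2 CPM had an SD of 0.59 for miR-151-5p and 0.55 for miR-151-3p, where counting error gives 0.14 and 0.09. Of the tested miRNAs, 94.1% had a smaller SD than miR-151-5p and 90.8% a smaller one than miR-151-3p.

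**Figure D1:**
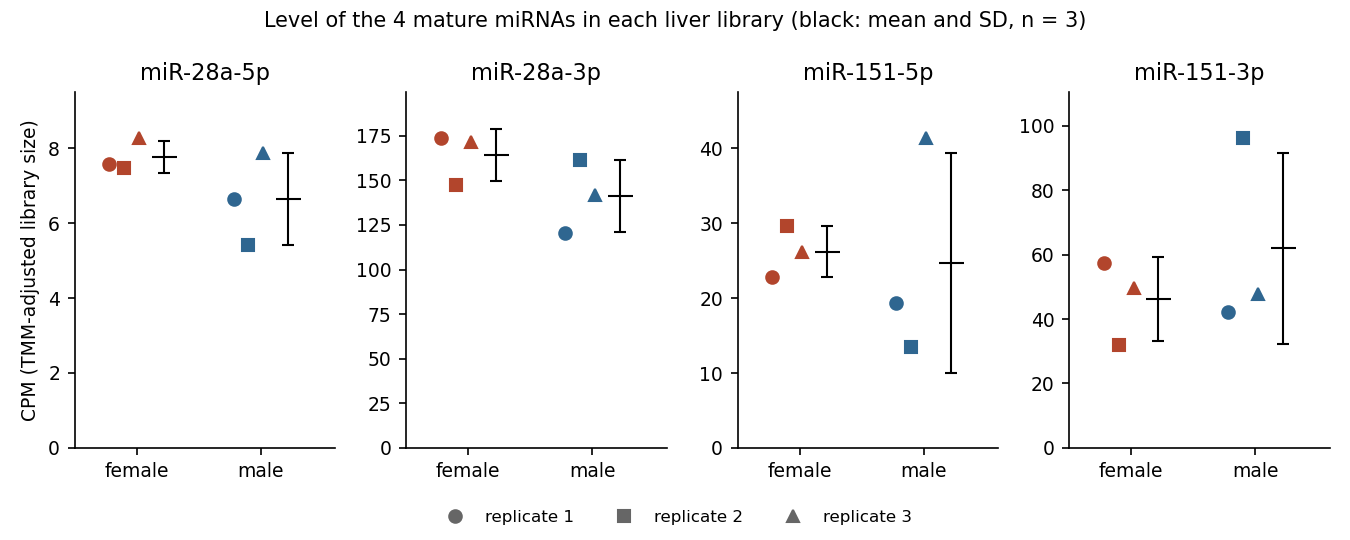
Level of each mature miRNA in CPM (TMM-adjusted library sizes, linear axes from 0, a scale for each panel) in 3 female and 3 male liver libraries; marker shape gives the replicate, and black bars the mean and SD. Females and males overlap in every panel, and male replicate 2 is the lowest library for miR-151-5p (13.5 CPM) and the highest for miR-151-3p (96.1 CPM).

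None of the 4 members passed the threshold of 0.05, where 6.76% of the 370 tested miRNAs did (3.24% higher and 3.51% lower in females). A count of 0 of 4 beside such a share does not set the members apart. At an unadjusted p under 0.05 the count was 0 of 4, against 18.1% of all tested miRNAs, and neither the DESeq2 Wald test nor limma-voom called a member. The groups overlapped for all 4, while 21.6% of tested miRNAs had groups that did not overlap. The median log2 fold change was 0.12 over the members and -0.01 over all tested miRNAs. The replicates were separate animals; in whole liver, fewer cells that make a miRNA and less of it per cell cannot be told apart.

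**Figure D2:**
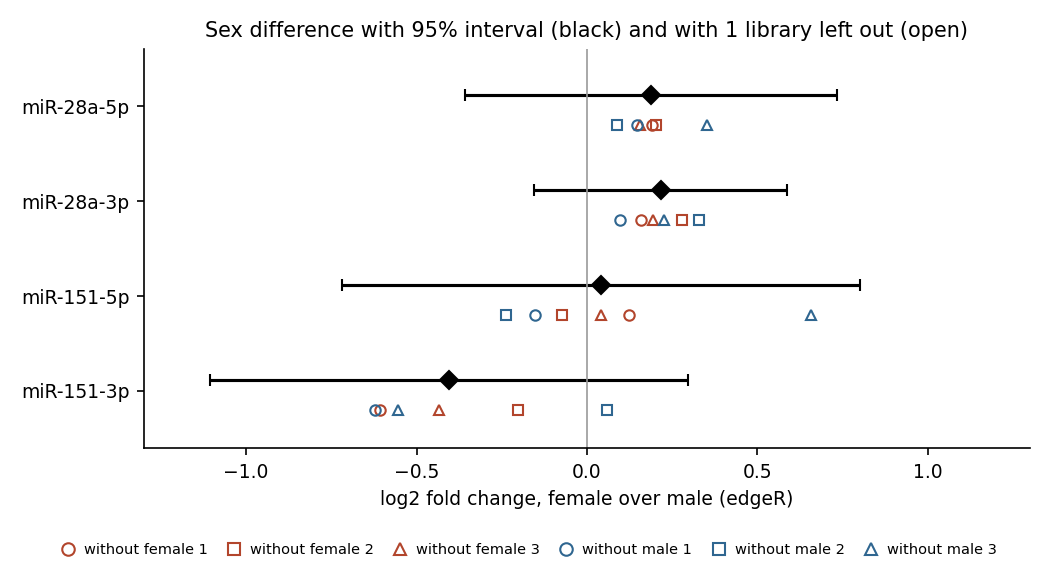
Log2 fold change of female over male (edgeR) for each miRNA, with its 95% interval in black and, as open symbols, the value with each library left out. All 4 intervals include 0; for miR-151-3p the value is -0.41 with all libraries and 0.06 without male replicate 2.

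The 2 hairpins differed in how their reads divided between arms. On average over the libraries, miR-28a gave 20.9 times as many 3p as 5p reads, and miR-151 gave 2.12 times as many (geometric means). Of 92 hairpins with both arms tested, paired by name, 43 had more 3p than 5p reads, and miR-28a had the nineteenth lowest ratio of 5p to 3p. The 5p share of miR-28a reads was 4.19, 4.82 and 4.60% in females, against 5.22, 3.25 and 5.26% in males. The lowest share, in male replicate 2, had a 95% exact binomial interval of 2.07 to 4.84%, which overlaps those of the other libraries. Such intervals cover counting error alone, because PCR copies of a read are not separate molecules.

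The arm balance of miR-151 varied between libraries of the same sex by more than counting error. Each animal gave 1 library, so differences between animals and between library preparations cannot be told apart. Its 5p share was 28.5% (95% exact interval 24.5 to 32.7%), 48.2% (41.5 to 55.0%) and 34.6% (28.9 to 40.6%) in the 3 females. In the males it was 31.4% (26.9 to 36.3%), 12.3% (9.44 to 15.6%) and 46.4% (43.7 to 49.0%). Thus none of the 3 male intervals overlapped another, and female replicate 2 lay apart from the other females. The ratio of 3p to 5p reads was 2.51, 1.07 and 1.89 in females, against 2.18, 7.14 and 1.16 in males.

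**Figure D3:**
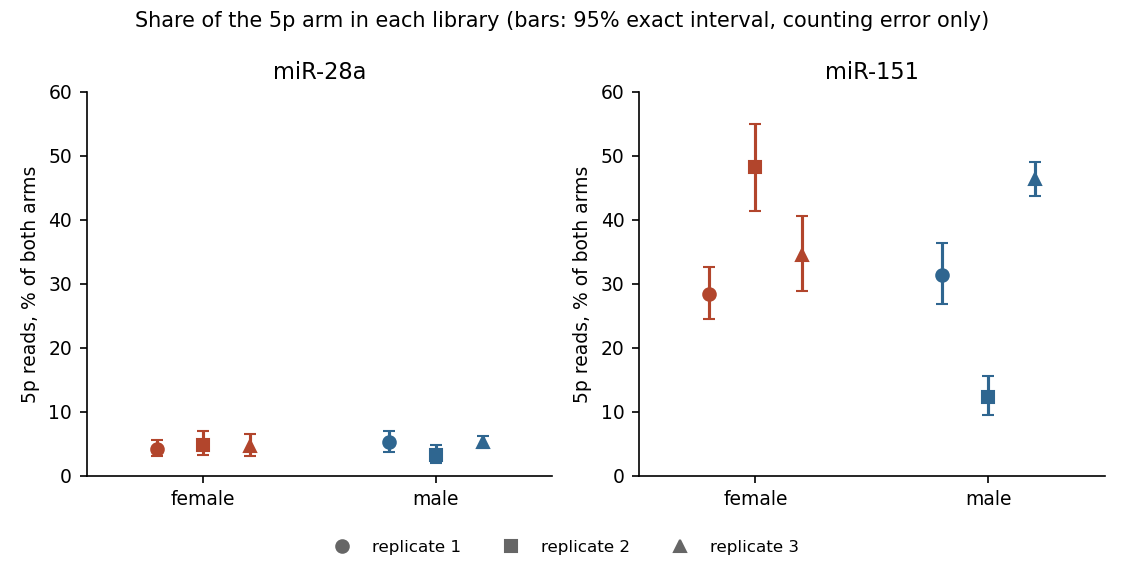
Share of 5p reads among the reads of both arms, in percent, for miR-28a and miR-151 in each library, with 95% exact binomial intervals that cover counting error only. The miR-28a shares all lie between 3.25 and 5.26%, while those of miR-151 run from 12.3% in male replicate 2 to 48.2% in female replicate 2.

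No difference in arm balance between the sexes was detected with 3 animals each. The mean log2 ratio of 5p to 3p of miR-151 was -0.78 ± 0.62 in females and -1.39 ± 1.33 in males (SD, n = 3 each). The difference was 0.60 (SE 0.62, 95% interval -0.83 to 2.03; adjusted p = 0.85, limma over the 92 hairpins), and it was -0.12 without male replicate 2 (adjusted p = 0.994, limma). For miR-28a the mean was -4.38 ± 0.11 in females and -4.40 ± 0.40 in males (SD, n = 3 each), a difference of 0.02 (95% interval -0.55 to 0.60; adjusted p = 0.966, limma). None of the 92 hairpins passed in this limma test (0%), and 5.43% had an unadjusted p under 0.05, neither of these hairpins among them. The exact two-sided permutation test gave p = 0.6 for miR-151 and p = 1 for miR-28a, where 0.1 is the smallest that 3 against 3 allow.

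The range of the log2 ratio over the 6 libraries was 2.72 for miR-151, a 6.60-fold span, and 0.70 for miR-28a, a 1.62-fold span; the median range of the 92 hairpins was 0.86. Only miR-369 and miR-139 ranged more widely than miR-151, and their smallest arm counts in a library were 9 and 6, against 57 for miR-151. Among the 55 hairpins with at least 20 counts on both arms in every library, a limit chosen after the spread was seen, miR-151 ranged most widely and miR-28a ranked 26. Male replicate 2 carried much of this. Without it the range of miR-151 was 1.22, a 2.34-fold span that ranked 4 of the 55, against a median of 0.54, and that of miR-28a was 0.33. This library also held the lowest ratio of the 6 libraries for 33 of the 92 hairpins and the highest for 21, while the other libraries held the lowest for 7 to 16 and the highest for 7 to 29. Its median deviation of log2 5p over 3p from the mean of the libraries was -0.10 over the 92 hairpins, with both directions among them. The higher hepatocyte and stromal sums and the lower leukocyte sum of the same library were not tested for a part in the arm balance.

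**Figure D4:**
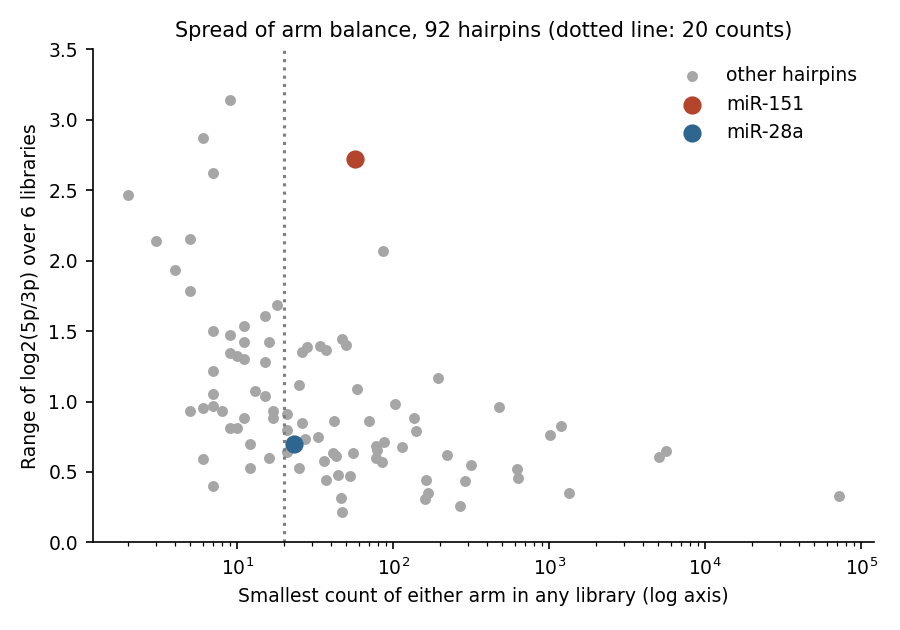
Range of log2(5p/3p) over the 6 libraries for each of 92 hairpins, against the smallest count of either arm in any library on a log axis; the dotted line marks 20 counts. To the right of the line miR-151 (2.72) has the widest range, while miR-28a (0.70) lies near the middle of the hairpins.

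Reads of both arms were also summed for each hairpin. The miR-151 total was 44.2, 39.7 and 42.3% of the miR-28a total in females, against 48.2, 65.7 and 59.6% in males. Each female lay below each male, and the averages were 42.1 ± 2.28% in females and 57.8 ± 8.85% in males (SD, n = 3 each). Ratios of other hairpin totals were not computed, so this separation has no background share of its own. Among single tested miRNAs, 21.6% had groups that did not overlap. The difference in the log2 ratio of the totals was -0.45, female minus male, and lay between -0.57 and -0.35 with any library left out. Its p was 0.1 (exact permutation, two-sided), the lowest that this design allows, so it did not pass 0.05. With the 3p arms alone and all libraries the difference was -0.59 (exact permutation p = 0.1). This 3p value was not computed without male replicate 2, the highest library for miR-151-3p (96.1 CPM). Most reads in both totals were from the 3p arms. The 5p arms of miR-151 and miR-28a had 138 and 46, 107 and 27, and 92 and 29 counts in the females. In the males they had 122 and 42, 57 and 23, and 651 and 124 counts. The ratio of the 5p arms therefore overlapped between the sexes. The ratio of totals does not depend on library size or scaling, since both totals come from the same library. The stromal and hepatocyte marker sums were also lower in every female than in every male, at the ranges given above. The hepatocyte sum was mostly miR-122-5p, which averaged 315746 CPM in females and 363970 CPM in males. The other hepatocyte markers were not lower in females on average: miR-192-5p stood at 37154 against 36729 CPM in males, and miR-194-5p at 18762 against 16633 CPM. The part of these sums in the ratio was not tested.

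**Figure D5:**
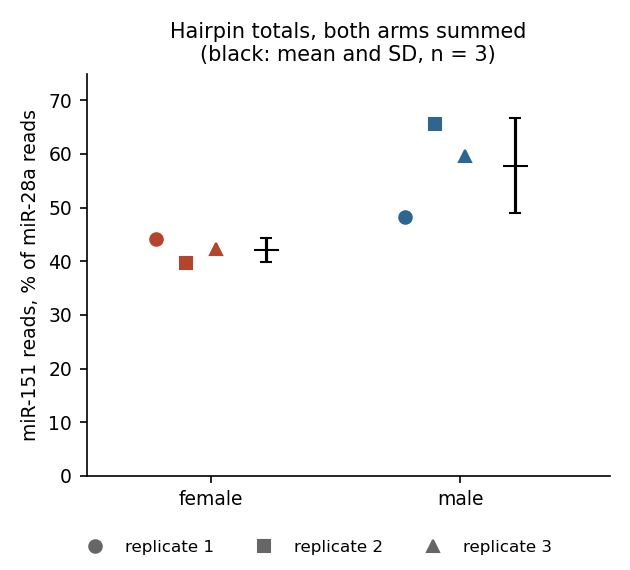
Summed reads of both miR-151 arms as a percentage of the summed reads of both miR-28a arms in each library, with the mean and SD in black. The 3 females lie between 39.7 and 44.2% and the 3 males between 48.2 and 65.7%, without overlap. Ratios of other hairpins were not computed for comparison.

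How alike 2 miRNAs ran was measured by the SD over the 6 libraries of the log2 ratio of their CPM, where a small value means a steady ratio. The 2 arms of miR-28a had an SD of 0.26. The 2 arms of miR-151 had 0.98, the widest of the 6 pairs among the members, whose other pairs lay between 0.38 and 0.69. For the 2 arms of a hairpin this SD is another measure of the spread in arm balance given above, not a separate result. Closest to miR-151-5p were miR-30b-5p and miR-17-5p (0.19 each) and miR-106a-5p (0.28), a relative of miR-17-5p. Closest to miR-151-3p were miR-671-3p (0.19), miR-328-3p (0.22) and miR-423-5p (0.23), so the arms had no near neighbour in common among these. For miR-28a-3p the closest were miR-378d (0.10), miR-676-5p (0.10) and miR-181a-5p (0.10), and for miR-28a-5p miR-324-5p (0.13), miR-22-5p (0.13) and miR-152-3p (0.14).

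Other miRNAs related to these hairpins were at or near the detection limit. None of the 6 listed relatives passed the filter. miR-28b had 3 counts in all, 1 in female libraries and 2 in male libraries. miR-28c and miR-325-3p had none in any library. For a count of 0 the 1-sided 95% limit is about 3 counts. These correspond to 0.521 to 0.913 CPM in females and 0.182 to 0.65 CPM in males. miR-708-5p, with the seed of miR-28a-5p, had 5 counts in females and 4 in males, against 102 and 189 for miR-28a-5p itself. miR-708-3p had 1 count in females and 15 in males, and miR-325-5p 0 in females and 1 in males. With the reads of miR-28b and miR-28c added to it, miR-28a-5p had a log2 fold change of 0.18 (adjusted p = 0.785, edgeR), close to the value without them.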

How the data were processed

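Small RNA was sequenced from liver of 3 female and 3 male mice; per the labels' protocols, liver was frozen in a stabilising buffer and a Qiagen kit for miRNA served for the libraries. Values are the estimated counts per mature miRNA that the authors deposited, not normalised. Partek, Bowtie and mm10 are named in the submitters' processing notes; for settings, trimming, reads with several matches and molecular identifiers, no detail was given in the sources used here. In a table of 2045 rows, 138 exact repeats were left out; 98.9% of the values were whole and the rest were rounded, which changed no member.

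Female and male libraries were compared with edgeR 4.0.16 in R 4.3.3 (TMM, filterByExpr by group at minimum count 10 and minimum total 15, quasi-likelihood test, robust option). Adjustment was by Benjamini-Hochberg over 370 tested miRNAs, at a threshold of 0.05; SE and intervals come from the same fit. Arm balance, log2 of (5p + 0.5) over (3p + 0.5), was fitted with limma 3.58.1 over 92 hairpins. The tests were checked on simulated data. Replicates are numbered in accession order and pair no animals; the chi-square per degree of freedom between any 2 libraries was at least 30.5, so none was a duplicate. Sequences are from RefSeq and duplexes from RNAduplex (ViennaRNA 2.7.2). DESeq2 1.42.0, limma-voom, other scalings and filters, and leaving out each library were alternatives. Named miRNAs are the 4 members, 6 listed relatives, marker lists and the 3 miRNAs closest to each member. Members and lists were chosen with earlier results of these data known.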

Additional observations from a re-analysis of the deposited data

How the results depend on the processing

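No member passed the threshold under any alternative. With all libraries kept, the log2 fold change of miR-28a-5p ranged from 0.08 to 0.32, that of miR-28a-3p from 0.13 to 0.36, that of miR-151-5p from -0.12 to 0.18 and that of miR-151-3p from -0.48 to -0.25. The sign of miR-151-5p turned to -0.048 with upper-quartile factors and to -0.12 on thinning to equal totals, which was chosen after seeing the data. Over all tested miRNAs the median log2 fold change was -0.01, against 0.13 with no TMM factor and -0.10 with upper-quartile factors or no filter. With 1 library left out, the values ran from 0.09 to 0.35 for miR-28a-5p, 0.10 to 0.33 for miR-28a-3p, -0.24 to 0.66 for miR-151-5p and -0.62 to 0.058 for miR-151-3p. Those of arm balance ran from -0.21 to 0.14 for miR-28a and from -0.12 to 1.19 for miR-151, and that of the log2 ratio of hairpin totals from -0.57 to -0.35. The range of log2 5p over 3p ran from 1.22 to 2.72 for miR-151 and from 0.33 to 0.70 for miR-28a, with both low values reached without male replicate 2. The count of 25 miRNAs past the threshold became 13 with a minimum count of 50, where fewer miRNAs were tested, and 9 to 32 with 1 library left out; the cause of the latter was not tested. With a minimum count of 50 miR-28a-5p was not tested, and with at least 50 counts on both arms miR-28a had no arm value. No paired analysis was possible because the labels give no replicate numbers that the sexes share. Depth limits miR-28a-5p most, with 23 to 124 counts a library.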
